A study of Sus scrofa with 6 samples.

Results

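Among the genes measured on 6 pig arrays, 82 carried symbols of the cell cycle, replication and mitosis families. They were found by symbol: TOP2A, PCNA, and every gene whose symbol starts with CCNA, CCNB, CCND, CCNE, CDC, CDK, MCM, ORC, POLA, POLD, POLE, RFC, CENP, AURK, BUB, PLK or KIF, with CDKN, CDKL and MCMBP left out. The 82 genes had 116 probe sets, out of 6765 gene symbols and 23999 probe sets in all. A probe set is a group of short probes to 1 transcript, and 1 probe set per gene, the one with the highest mean over the arrays, was used. By role, 20 genes belonged to DNA replication (9 to origin licensing and firing, 11 to DNA synthesis) and 23 to mitosis. A further 2 were G1 genes, 5 were transport kinesins and their adaptor, 11 had CDK-type names, and 21 shared only the prefix or had another main role.

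The samples were cultures of pig cells, each on 1 Affymetrix Pig Genome Array. The 4 induced pluripotent stem (iPS) lines, cells reprogrammed to a pluripotent state, are told apart in the labels by the stage-specific embryonic antigens (SSEA) on their surface: PS24 carries SSEA1, SSEA3 and SSEA4, 30AC5 carries SSEA1, and iPF4-2 and iPSCs-w carry SSEA3 and SSEA4. The 2 somatic samples were PEF, embryo fibroblasts, and PAFSC, amniotic fluid stem cells. All were grown in DMEM with fetal bovine serum, and the iPS lines on feeder layers of mitotically inactive embryonic fibroblasts of ICR mice. The sources used here do not give the reprogramming factors, the donor animals, the pig strain or age. Each iPS line is a single line and each somatic type a single culture, so a p-value covers only how far these samples scatter. In bulk RNA, fewer dividing cells and less RNA per cell cannot be told apart.

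A dividing cell loads the ORC and MCM proteins onto origins in G1, copies its DNA in S phase with polymerases held on the template by the PCNA clamp, and divides after cyclin B, the Aurora kinases and PLK1 start mitosis. Transcripts of the replication genes mostly peak around the G1 to S transition and those of the mitotic genes in G2 and M. In mouse and human, pluripotent stem cells are known for a short G1 and a large share of cells in S phase, while fibroblasts in culture spend longer in G1.

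Each probe set has its own zero on the log2 scale. Values can be compared between arrays for 1 gene, and they do not rank genes by level. The PAFSC array stood apart. Its values had an SD of 2.01 over all probe sets, against 0.610 to 0.808 on the other 5 arrays, and 2064 of its values lay below -3, against 29 to 125. Its median was 0.70, and the other medians lay between -0.06 and 0.05. Marker medians were -0.76 to 0.18 in the iPS lines against 4.45 in PEF and 1.95 in PAFSC for the 9 measured of 10 fibroblast genes. Single fibroblast genes were high in iPF4-2, with LUM at 3.77, POSTN at 3.01 and DCN at 2.34, and LUM and POSTN there exceeded PAFSC at 1.59 and 1.17. The summed values of the list were 9.48 in iPF4-2 and -11.5 to -3.44 in the other lines, against 37.8 in PEF and 26.9 in PAFSC. For the 6 measured of 10 pluripotency genes the medians were 1.79 in iPF4-2 and 2.41 in iPSCs-w, but -0.06 in PS24 and -0.38 in 30AC5. PEF had a median of -0.77 and PAFSC 0.59. For 7 epithelial genes the medians were 2.76 in iPF4-2 and 2.81 in iPSCs-w, but -0.16 in PS24 and 0.55 in 30AC5. PEF had a median of -0.68 and PAFSC 0.16. PS24 had low signal at the 5′ end of 3 control transcripts (mean 5′ minus 3′ value -1.90, against -0.03 to 0.19 on the other iPS arrays). PAFSC had a mean of 1.90 there, but its controls disagreed, with actin at 2.72 and EF1A at -0.70. One GAPDH probe set was at -6.61 in PAFSC, a value near those of PCNA and TOP2A given below, and another GAPDH probe set was at 0.36. The part of these array differences in the results was not tested.

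The disagreement within PAFSC was visible in the members themselves. For the 25 members with several probe sets, the range between probe sets of 1 gene had a median of 1.84 in PAFSC, against 0.29 to 0.59 on the other arrays. It exceeded 2 for 10 genes in PAFSC and for 0 genes on any other array. MCM2, a subunit of the replicative helicase, had PAFSC values of 1.64, 1.38 and -3.0 from its 3 probe sets. MCM5, another subunit, had 1.89, 0.79 and -2.10, and ORC4, of the origin recognition complex, had 1.30, 0.36 and -2.79. The probe set with the highest mean was also the highest in PAFSC for 22 of the 25 genes. A PAFSC value of a single member is therefore uncertain, and each comparison below is also given against PEF without PAFSC.

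**Figure D1:**
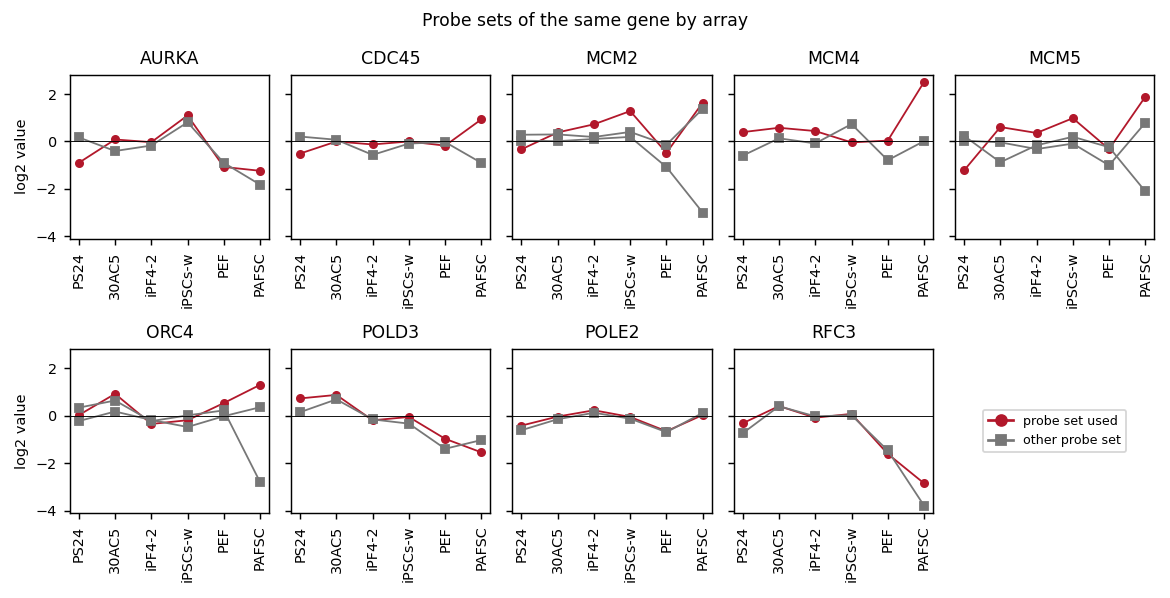
Log2 values of every probe set of the replication and mitosis genes that have several, on the 6 arrays (iPS lines left, PEF and PAFSC right), with the probe set used in red. Probe sets of MCM2, MCM5 and ORC4 lie up to 1.48 apart on the other 5 arrays and up to 4.63 apart in PAFSC, while in RFC3 and POLD3 every probe set has PEF below the iPS lines.

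Against both somatic samples together, 0 of the 82 members passed limma's test in either direction (adjusted p under 0.05). Over all probe sets, 0.00833% were called higher and 0.0167% lower in iPS lines. At an unadjusted p under 0.05, 14 members were higher and 3 lower, beside 8.25% and 5.4% of all probe sets. In 23 members all 4 iPS lines lay above both somatic samples, and in 4 members below both. Over all probe sets these shares were 11.9% and 9.99%, and over all genes 15.6% and 10.3%. Replication gave 6 of the 23 members and mitosis 9. With PEF left out, so that the lines were set against the single PAFSC array, limma called 37 members higher and 17 lower, among 20.7% and 38.9% of all probe sets.

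Against PEF alone, 0 of 82 members passed limma's test, where 0.0542% of all probe sets were called higher and 0.513% lower in iPS lines. At an unadjusted p under 0.05, 7 members were higher and 6 lower, with 5.71% and 6.61% of all probe sets. All 4 lines lay above PEF in 36 of 82 members (43.9%) and below it in 11. All probe sets gave 32.4% and 19.1%, and all genes 35.9% and 18.8%. Replication had 11 of 20 members (55.0%) with every line above PEF and 0 below. Mitosis had 12 of 23 (52.2%) above and 3 below. With PS24 left out as well, the other 3 lines were all above PEF in 43 members and all below in 15, where all probe sets gave 37.3% and 23.5%. After quantile normalization the count above PEF was 28 and after median centring 29, beside 24.6% and 26.5% of all probe sets. These counts all lean on the single PEF array.

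**Figure D2:**
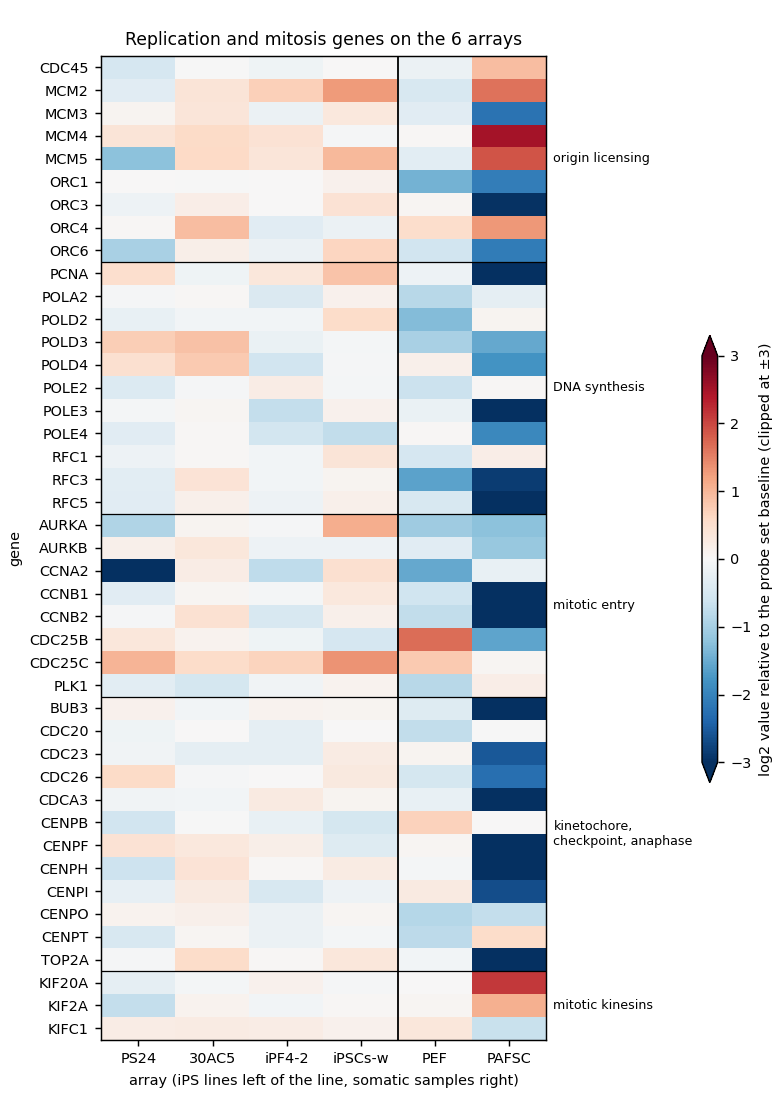
Log2 values relative to each probe set's baseline for the 20 replication and 23 mitosis genes (rows, by role) on the 6 arrays, iPS lines left of the line and somatic samples right, with colours clipped at ±3. The PEF column is pale blue in most replication rows, and the PAFSC column holds the deepest blue (TOP2A -7.24, PCNA -6.55) next to red rows such as MCM4 at 2.51.

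The median over the 20 replication genes was 0.16 in 30AC5, -0.14 in PS24, 0.13 in iPSCs-w and -0.11 in iPF4-2, against -0.41 in PEF and -1.66 in PAFSC. The medians of all 4 lines lay above both somatic samples. The median difference of iPS lines from somatic samples was 0.82 on the log2 scale, and from PEF alone 0.50. Over all probe sets these medians were -0.34 and 0.13. Without PEF the replication median was 1.71. Removal of the 40% of probe sets with the lowest mean kept 5 replication genes, all of them licensing genes, and 0 synthesis genes. Their median difference was -0.60, against -0.68 over the probe sets that remained. That mean includes PAFSC, so the filter removes probe sets low in PAFSC. It cannot give the direction for the replication genes as a whole. Among the lines, 30AC5 and iPSCs-w had higher medians than PS24 and iPF4-2.

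Among the 9 licensing genes the largest difference was in ORC1, the ATPase subunit that starts origin recognition. ORC1 had -0.00 in 30AC5, 0.00 in PS24, 0.13 in iPSCs-w and 0.01 in iPF4-2, against -1.41 in PEF and -2.07 in PAFSC. The lines lay close together (SD 0.064, n = 4) and well above both somatic values, with no overlap. The difference was 1.78 (SE 0.46) from somatic samples, with an adjusted p of 0.233 in limma, and 1.44 (SE 0.24) from PEF, with an adjusted p of 0.105. Neither passed the threshold.

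The MCM genes encode the helicase that is loaded at licensed origins. MCM3 had 0.37 in 30AC5, 0.07 in PS24, 0.32 in iPSCs-w and -0.18 in iPF4-2, against -0.35 in PEF and -2.22 in PAFSC. Its iPS values did not overlap the somatic ones, although iPF4-2 and PEF were 0.17 apart. The difference from PEF was 0.49 (SE 0.32, limma adjusted p 0.617). MCM2 had 0.38 in 30AC5, -0.33 in PS24, 1.28 in iPSCs-w and 0.72 in iPF4-2, against -0.48 in PEF and 1.64 in PAFSC. It lay above PEF in all 4 lines, and so did its other 2 probe sets. With the probe set used and with the second, at 1.38 in PAFSC, the lines lay below PAFSC. With the third, at -3.0 in PAFSC, they lay above it.

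MCM4 had 0.58 in 30AC5, 0.39 in PS24, -0.04 in iPSCs-w and 0.44 in iPF4-2, against 0.04 in PEF and 2.51 in PAFSC. The iPSCs-w line lay just below PEF and the other lines above it. With the other MCM4 probe set all 4 lines lay above PEF at -0.79, and iPSCs-w was the highest at 0.73. PAFSC was at 0.01 there. MCM5 had 0.61 in 30AC5, -1.22 in PS24, 0.98 in iPSCs-w and 0.36 in iPF4-2, against -0.32 in PEF and 1.89 in PAFSC. With this probe set PS24 was the lowest of the 6 arrays and the other lines lay above PEF. With the other 2 MCM5 probe sets PS24, at 0.04 and 0.24, was the highest of the lines and lay above PEF at -1.01 and -0.24. CDC45, which joins the helicase when an origin fires, had -0.00 in 30AC5, -0.51 in PS24, 0.00 in iPSCs-w and -0.13 in iPF4-2, against -0.18 in PEF and 0.93 in PAFSC. PEF lay within the range of the lines, and the difference from PEF was 0.02 (SE 0.31). The other CDC45 probe set had 0.07 in 30AC5, 0.21 in PS24, -0.09 in iPSCs-w and -0.57 in iPF4-2. PEF was at -0.03 and PAFSC at -0.90 there.

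ORC3, ORC4 and ORC6 complete the licensing genes. Their 4 lines lay on both sides of PEF in each case, with PEF at 0.05, 0.54 and -0.57. Over all 9 genes the median difference was -0.06 against the somatic samples and 0.48 against PEF. The sign against the somatic samples turned with scaling, to 0.58 after quantile normalization.

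DNA synthesis was the role with the highest share of members above PEF. All 4 lines lay above it in 8 of 11 (72.7%): POLA2, POLD2, POLD3, POLE2, PCNA, RFC1, RFC3 and RFC5. All genes gave 35.9%. After quantile normalization, and also after median centring, the count was 7 (63.6%), with 1 gene below PEF. All probe sets then gave 24.6% and 26.5%. All 4 lines lay above both somatic samples in PCNA, POLD3, RFC3 and RFC5, where all genes gave 15.6%. The median difference was 0.98 against somatic samples and 0.56 against PEF.

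PCNA is the sliding clamp that holds polymerases on DNA. It had -0.13 in 30AC5, 0.50 in PS24, 0.85 in iPSCs-w and 0.35 in iPF4-2, against -0.16 in PEF and -6.55 in PAFSC. The gap to PAFSC was far wider than the gap to PEF, which 30AC5 exceeded by 0.03. The difference was 3.74 (SE 1.44) from somatic samples, with a limma adjusted p of 0.337, and 0.55 (SE 0.41) from PEF, with an adjusted p of 0.671.

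RFC genes encode the loader that opens PCNA around DNA. RFC3, chosen after its values were seen, had 0.41 in 30AC5, -0.32 in PS24, 0.08 in iPSCs-w and -0.08 in iPF4-2, against -1.61 in PEF and -2.85 in PAFSC. Its second probe set had 0.40 in 30AC5, -0.74 in PS24, 0.02 in iPSCs-w and -0.02 in iPF4-2, against -1.46 in PEF and -3.79 in PAFSC. With both probe sets the 4 lines were separate from both somatic samples. The difference was 2.25 (SE 0.53, limma adjusted p 0.201) from somatic samples and 1.63 (SE 0.35, limma adjusted p 0.161) from PEF, the highest among all members against PEF. RFC1, the large subunit, had 0.05 in 30AC5, -0.14 in PS24, 0.39 in iPSCs-w and -0.09 in iPF4-2, against -0.51 in PEF and 0.20 in PAFSC, and so overlapped PAFSC. RFC5 had -0.35 to 0.15 in the lines, against -0.47 in PEF and -4.36 in PAFSC.

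POLD2, POLD3 and POLD4 are accessory subunits of polymerase delta, which copies the lagging strand. POLD3 had 0.88 in 30AC5, 0.73 in PS24, -0.05 in iPSCs-w and -0.19 in iPF4-2, against -0.97 in PEF and -1.54 in PAFSC. All lines lay above both somatic samples, and PS24 and 30AC5 lay above the other lines. The difference from PEF was 1.31 (SE 0.51, limma adjusted p 0.398). POLD2, also chosen after its values were seen, had -0.08 in 30AC5, -0.23 in PS24, 0.55 in iPSCs-w and -0.09 in iPF4-2, against -1.30 in PEF and 0.08 in PAFSC. The lines were above PEF by 1.34 (SE 0.38, limma adjusted p 0.265), and PAFSC lay among them.

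The remaining synthesis genes differed from PEF by 0.75 or less. POLA2, the regulatory subunit of the polymerase that makes primers, had -0.43 to 0.13 in the lines against -0.82 in PEF. POLE2, a subunit of polymerase epsilon of the leading strand, had -0.41 to 0.23 against -0.65 in PEF. POLE3, POLE4 and POLD4 had lines on both sides of PEF or, for POLE4, 1 line above it by 0.01. In PAFSC, POLE3 was at -5.09.

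**Figure D3:**
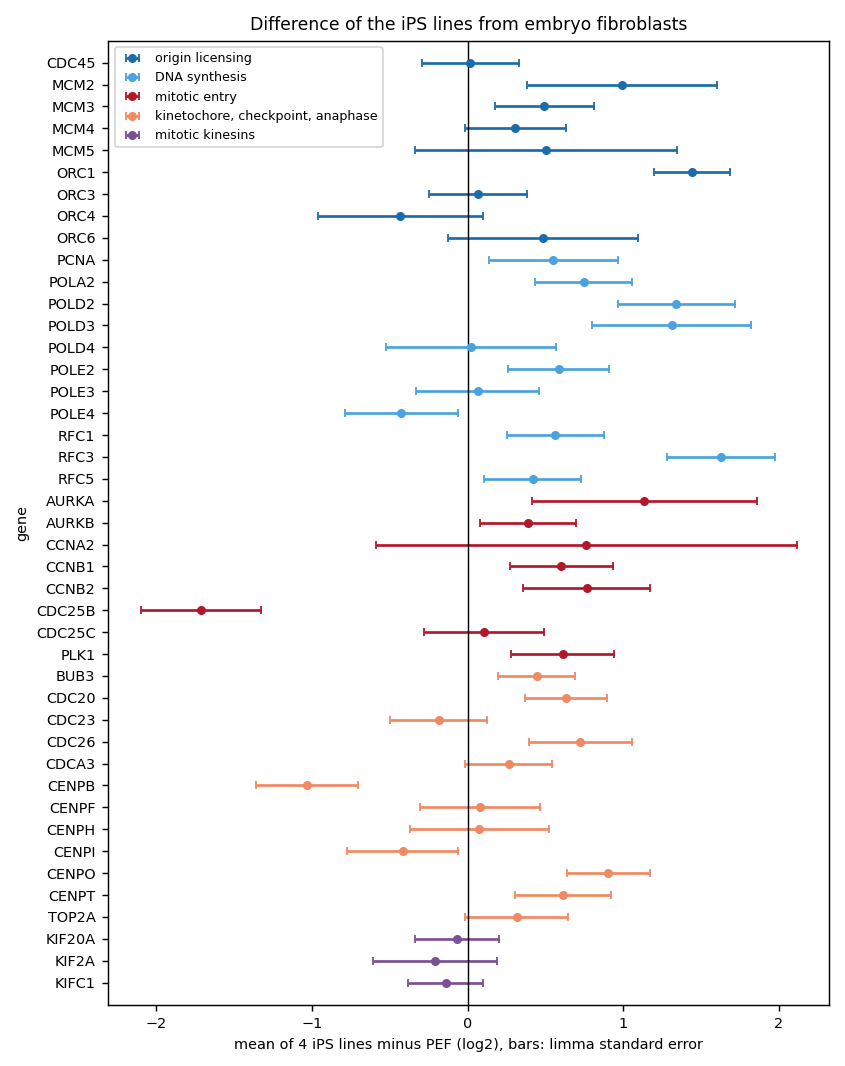
Mean of the 4 iPS lines minus PEF for the replication and mitosis genes, on the log2 scale, with limma standard errors and colours by role. RFC3 (1.63), ORC1 (1.44), POLD2 (1.34) and POLD3 (1.31) lie farthest right, CDC25B (-1.71) and CENPB (-1.03) farthest left, and 0 genes passed the adjusted threshold.

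The median over the 23 mitosis genes was 0.11 in 30AC5, -0.11 in PS24, 0.08 in iPSCs-w and -0.08 in iPF4-2, against -0.22 in PEF and -1.24 in PAFSC. The lines again had medians above both somatic samples. The median difference was 0.83 from somatic samples and 0.32 from PEF, where all probe sets gave -0.34 and 0.13. Without PEF the mitosis median was 1.30. With the lowest 40% left out it was -0.18 over the 4 mitosis genes kept, 1 entry gene and the 3 mitotic kinesins. The probe sets that remained had a median of -0.68. Of the 12 centromere, kinetochore, checkpoint and anaphase genes, 0 remained. The filter again removes probe sets low in PAFSC and cannot give the direction for all mitosis genes.

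Of the 8 genes of mitotic entry, 5 (62.5%) had every line above PEF: AURKA, AURKB, CCNB1, CCNB2 and PLK1. All genes gave 35.9%. CCNB1 encodes the main cyclin of the mitotic kinase CDK1. It had 0.07 in 30AC5, -0.34 in PS24, 0.32 in iPSCs-w and -0.07 in iPF4-2, against -0.61 in PEF and -3.96 in PAFSC. CCNB2, a related B-type cyclin, had 0.47 in 30AC5, -0.03 in PS24, 0.16 in iPSCs-w and -0.48 in iPF4-2, against -0.74 in PEF and -5.51 in PAFSC. In both cyclins the lines did not overlap the somatic samples. The differences from PEF were 0.60 (SE 0.33) and 0.77 (SE 0.41), with limma adjusted p of 0.557 and 0.541.

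AURKA, a kinase of centrosomes and spindle poles, had 0.08 in 30AC5, -0.90 in PS24, 1.10 in iPSCs-w and -0.03 in iPF4-2, against -1.07 in PEF and -1.24 in PAFSC. The lines were spread over 1.99 log2 units and still lay above both somatic samples. Its second probe set also had all lines above both. AURKB, the kinase that corrects kinetochore attachments, had 0.33 in 30AC5, 0.14 in PS24, -0.14 in iPSCs-w and -0.16 in iPF4-2, against -0.34 in PEF and -1.15 in PAFSC. PLK1, which drives entry and exit from mitosis, had -0.54 in 30AC5, -0.32 in PS24, 0.10 in iPSCs-w and -0.10 in iPF4-2, against -0.82 in PEF and 0.20 in PAFSC. PLK1 was thus above PEF and below PAFSC in every line.

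CCNA2, the cyclin of S phase and G2, was the most uneven entry gene among the lines. It had 0.23 in 30AC5, -3.02 in PS24, 0.47 in iPSCs-w and -0.77 in iPF4-2, against -1.54 in PEF and -0.23 in PAFSC. PS24 was the lowest array, and its 5′ control signal was low too. The difference from PEF was 0.76 (SE 1.35), within the spread of the lines.

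CDC25B, a phosphatase that activates the mitotic CDKs, ran the other way against PEF. It had 0.11 in 30AC5, 0.35 in PS24, -0.50 in iPSCs-w and -0.14 in iPF4-2, against 1.67 in PEF and -1.57 in PAFSC. PEF was the highest of the 6 arrays and PAFSC the lowest, with the lines between. The difference from PEF was -1.71 (SE 0.38, limma adjusted p 0.177). CDC25C, the related phosphatase of mitotic entry, had 0.55 to 1.35 in the lines, which spanned the PEF value of 0.80, and 0.06 in PAFSC.

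The 12 genes of centromere, kinetochore, spindle checkpoint and anaphase had a median of -2.61 in PAFSC, and between -0.16 and 0.07 on the other arrays. TOP2A, the topoisomerase that untangles sister chromatids, had 0.56 in 30AC5, -0.03 in PS24, 0.34 in iPSCs-w and 0.03 in iPF4-2, against -0.09 in PEF and -7.24 in PAFSC. PAFSC alone was far off, and PEF lay 0.06 under PS24. The difference was 3.89 (SE 1.59, limma adjusted p 0.350) from somatic samples and 0.32 (SE 0.33, limma adjusted p 0.760) from PEF. CENPF, a large kinetochore protein of G2 and mitosis, had 0.32 in 30AC5, 0.44 in PS24, -0.38 in iPSCs-w and 0.17 in iPF4-2, against 0.06 in PEF and -3.07 in PAFSC. PEF lay inside the range of the lines.

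All 4 lines lay above PEF in 7 of the 12 genes: BUB3, CDC20, CDC26, CDCA3, CENPO, CENPT and TOP2A. All genes gave 35.9%. After quantile normalization the count was 5, with 2 genes below PEF, and after median centring 6, with 2 below. All probe sets then gave 24.6% and 26.5%. CDC20, the activator of the anaphase-promoting complex, had 0.01 in 30AC5, -0.13 in PS24, 0.01 in iPSCs-w and -0.27 in iPF4-2, against -0.73 in PEF and -0.01 in PAFSC. The lines were higher than PEF by 0.63 (SE 0.26, limma adjusted p 0.422), and PAFSC lay among them. CENPO, of the inner kinetochore, was chosen here after its values were seen: it had 0.15 in 30AC5, 0.11 in PS24, 0.06 in iPSCs-w and -0.17 in iPF4-2, against -0.87 in PEF and -0.71 in PAFSC. Its somatic values were close to each other, unlike those of most members, and the difference from PEF was 0.90 (SE 0.27, limma adjusted p 0.282).

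CENPB, which binds centromeric satellite DNA, was the gene of this role with the lines lowest against the somatic samples. It had -0.02 in 30AC5, -0.58 in PS24, -0.54 in iPSCs-w and -0.22 in iPF4-2, against 0.69 in PEF and 0.02 in PAFSC. All lines lay below both, with 30AC5 0.04 under PAFSC. The difference from PEF was -1.03 (SE 0.33, limma adjusted p 0.310).

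The checkpoint gene BUB3, the anaphase-promoting complex genes CDC23 and CDC26, the mitotic entry regulator CDCA3, and the inner kinetochore genes CENPH and CENPI had PAFSC values of -4.67 to -2.27. In the lines these 6 genes lay between -0.62 and 0.56, and in PEF between -0.52 and 0.27. CENPT, which links the inner kinetochore to its outer part, was the other way round, with -0.48 to 0.05 in the lines, against -0.78 in PEF and 0.55 in PAFSC.

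In 0 of the 3 mitotic kinesins did all lines lie above PEF. All genes gave 35.9%, and 3 genes are too few to set against that share. KIF20A, a motor of cytokinesis, had -0.07 in 30AC5, -0.27 in PS24, -0.05 in iPSCs-w and 0.12 in iPF4-2, against 0.00 in PEF and 2.13 in PAFSC. KIFC1, a minus-end motor that clusters spindle poles, had 0.24 in 30AC5, 0.22 in PS24, 0.14 in iPSCs-w and 0.23 in iPF4-2, against 0.35 in PEF and -0.66 in PAFSC. The KIFC1 lines had an SD of 0.048 (n = 4) and were all below PEF and above PAFSC. KIF2A, which shortens microtubules at spindle poles, had -0.72 in PS24 and -0.08 to 0.11 in the other lines, against 0.05 in PEF and 1.07 in PAFSC.

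Of the G1 genes, CDK2, the kinase of the G1 to S transition, had -0.37 in 30AC5, -0.25 in PS24, 0.19 in iPSCs-w and -0.63 in iPF4-2, against -1.02 in PEF and 2.41 in PAFSC. With this probe set the lines were above PEF and below PAFSC, where the CDK2 probe sets gave 2.41, 1.10 and -2.0. With the probe set at -2.0 in PAFSC, iPF4-2 at 0.07 lay below PEF at 0.16, and all lines lay above PAFSC. CCND2, a D-type cyclin of G1, had 1.06 in 30AC5, 1.25 in PS24, -1.59 in iPSCs-w and 0.47 in iPF4-2, against 1.23 in PEF and -0.70 in PAFSC. The lines ranged over more than the distance between the somatic samples.

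Among the transport kinesins and their adaptor, KIF5C, a kinesin heavy chain best known from neurons, had 0.04 in 30AC5, -0.24 in PS24, -0.02 in iPSCs-w and 0.29 in iPF4-2, against -1.58 in PEF and -3.97 in PAFSC. It was separate from both somatic samples in every line. The difference was 2.79 (SE 0.68, limma adjusted p 0.213) from somatic samples and 1.60 (SE 0.30, limma adjusted p 0.126) from PEF. KIF3A, a motor of cilia transport, had 0.47 in 30AC5, 0.40 in PS24, 0.04 in iPSCs-w and 0.01 in iPF4-2, against -0.01 in PEF and 1.51 in PAFSC. Its order depended on the probe set. With the second, all lines lay below PEF at 0.28, and with the third all lay above PEF. With the fourth, only 30AC5 lay above PEF at 0.41, and PAFSC was at -2.08. KIFAP3, the adaptor of the KIF3 motor, was chosen after its values were seen, with -0.88 to 0.73 in the lines against 1.99 in PEF and -3.30 in PAFSC.

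Of the 11 CDK-named genes, CDK7, CDK9 and CDK5RAP1 had every line above both somatic samples, where all genes gave 15.6%. CDK7, the kinase that activates other CDKs and works in transcription factor TFIIH, had -0.44 to 0.91 in the lines, against -1.04 in PEF and -0.87 in PAFSC. CDK9, the elongation kinase of transcription, had 0.01 to 0.48 in the lines, against -0.06 in PEF and -2.20 in PAFSC. CDK16 had -0.17 in 30AC5, -0.09 in PS24, -0.01 in iPSCs-w and -0.22 in iPF4-2, against 0.31 in PEF and 1.57 in PAFSC. With this probe set and the second it was below both in every line. With the third, 3 lines lay above PEF at -0.58, and PS24 lay below it at -1.43. CDK2AP1, a protein that binds CDK2, had -0.35 to 0.06 in the lines, against 0.32 in PEF and -4.44 in PAFSC. CDK5, a kinase best known from neurons, had -0.45 to 0.32 in the lines, against -0.36 in PEF and 0.94 in PAFSC.

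The 21 genes that shared only the prefix, or had another main role, held the lowest differences of all members. CDC42EP5, an effector of the small GTPase CDC42 in the actin cytoskeleton, had 0.25 in 30AC5, -0.68 in PS24, -2.25 in iPSCs-w and -1.75 in iPF4-2, against 1.31 in PEF and 2.55 in PAFSC. All lines lay below both somatic samples, by -3.03 on average (SE 0.77, limma adjusted p 0.231). CDC42EP3, a related effector chosen after its values were seen, had -0.12 in 30AC5, -0.63 in PS24, -1.63 in iPSCs-w and -0.35 in iPF4-2, against 1.68 in PEF and 0.30 in PAFSC, and was also below both. PLK2, a kinase of the stress response and centriole duplication also chosen that way, had -1.21 in 30AC5, -0.85 in PS24, -1.38 in iPSCs-w and 1.13 in iPF4-2, against 2.09 in PEF and 0.79 in PAFSC. It was below PEF in all lines, by -2.67 (SE 1.00, limma adjusted p 0.378). CCNB1IP1, a ubiquitin ligase of meiotic crossing over, had -0.64 to 1.27 in the lines, against -0.09 in PEF and -5.73 in PAFSC.

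Between the iPS lines, those labelled with SSEA1 (PS24 and 30AC5) were set against those labelled with SSEA3 and SSEA4 but without SSEA1 (iPF4-2 and iPSCs-w). In limma's 3-class model 0 of 82 members passed, and 0% of all probe sets did in either direction. At an unadjusted p under 0.05, 1 member was higher and 0 lower, beside 1.72% and 1.12% of all probe sets. With PAFSC left out, again 0 members passed, while 0.0125% of all probe sets were called higher and 0.00417% lower. At an unadjusted p under 0.05, 5 members were then higher and 1 lower, beside 5.93% and 5.13% of all probe sets. Both SSEA1 lines lay above both other lines in 18 members and below both in 10, where all probe sets gave 21% and 20.2%. The median difference was -0.09 for replication and -0.07 for mitosis. Neither sign held when single samples were left out: without PS24 the medians were 0.10 and 0.14. The pluripotency and epithelial markers had higher medians in iPF4-2 and iPSCs-w, as given above, and their part in these differences was not tested.

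CDC42EP5, POLD3 and CCND2 were the members higher in the SSEA1 lines with the smallest p among those without overlap, in the fit of all 6 arrays. With PAFSC left out, POLD4, KIFAP3 and CCNB1IP1 had smaller unadjusted limma p than CCND2, which was not among the 5 members counted there. In the fit of all 6 arrays, CDC42EP5 was 1.79 (SE 0.72) higher in the SSEA1 lines, CCND2 1.72 (SE 0.93) and POLD3 0.93 (SE 0.61). In CCND2 this rested mainly on iPSCs-w at -1.59, since iPF4-2 was at 0.47. MCM2 was lower in the SSEA1 lines by -0.98 (SE 0.83), CDK5 by -0.45 (SE 0.69) and PLK1 by -0.43 (SE 0.65). Each limma adjusted p was 1.0. The MCM2 result depended on the probe set. Its second probe set had 0.30 in 30AC5 and 0.28 in PS24, between 0.40 in iPSCs-w and 0.19 in iPF4-2. The third had 0.01 in 30AC5 and 0.03 in PS24, a little below 0.19 in iPSCs-w and 0.11 in iPF4-2.

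**Figure D4:**
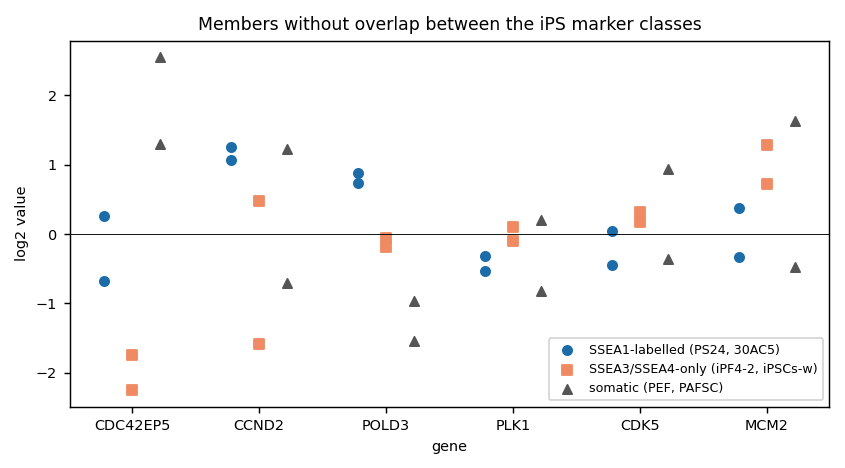
Log2 values of 6 members, from the probe set used for each, in the SSEA1-labelled lines (circles), the SSEA3/SSEA4-only lines (squares) and the somatic samples (triangles). The circles lie above the squares in CDC42EP5, CCND2 and POLD3 and below them in PLK1, CDK5 and MCM2, and in POLD3 both classes lie above the somatic samples, while in CDC42EP5 both lie below.

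Of 78 other cell cycle genes listed for comparison, among them nucleotide synthesis enzymes, checkpoint kinases and spindle proteins, 40 were measured and 0 passed limma's test in either comparison. Their median was 0.19 in 30AC5, 0.14 in PS24, 0.09 in iPSCs-w and 0.00 in iPF4-2, against -0.36 in PEF and -0.98 in PAFSC. All 4 lines lay above PEF in 24 of 40 (60.0%) and below it in 0, where all genes gave 35.9% and 18.8%. CHEK1, the kinase of the replication checkpoint, was 1.76 (SE 0.44, limma adjusted p 0.216) above PEF, while PAFSC at 0.04 lay among the lines. GINS4, of the active helicase, was 1.27 (SE 0.45, limma adjusted p 0.356) and PTTG1, the securin that guards anaphase, 1.11 (SE 0.24, limma adjusted p 0.169) above PEF. PAFSC values lay below -2 in 14 of the 40 genes, the lowest in MAD2L1 of the spindle checkpoint at -8.20. They lay above 1 in 4 genes, up to 1.93. All genes gave 16.7% and 42.6%.

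PEF and PAFSC had 1 array each, so their difference has no test. PEF was more than 1 log2 unit above PAFSC in 37 members and more than 1 below in 25, against 25.7% and 44.6% of all probe sets. For replication these counts were 9 and 5 of 20, and for mitosis 12 and 5 of 23. PAFSC was the lowest of the 6 arrays in 42 members, against 27.7% of all probe sets, and the highest in 26, against 50.1%. PAFSC values lay below -2 in 27 members, against 15.2% of all probe sets, and above 1 in 19, against 43.9%. Replication and mitosis together held 18 of the 27 and 6 of the 19. Members with 1 probe set had a median of -1.57 in PAFSC (57 genes), while the chosen probe sets of the other 25 genes had a median of 1.30 and their 34 further probe sets -0.30.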

How the data were processed

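Biotin-labelled cRNA of total RNA was hybridised to Affymetrix Pig Genome Arrays, per the labels' protocols. The deposited table holds log2 values (base read from their range) of 24123 probe sets on 6 arrays, with 0 missing. How the authors normalized the arrays and set the zero of each probe set, and with which software, is not given in the sources used here. Medians are 0.00 in 30AC5, 0.05 in PS24, 0.01 in iPSCs-w, 0.02 in iPF4-2, -0.06 in PEF and 0.70 in PAFSC. In 18.6% of probe sets some 2 arrays had values equal in size and opposite in sign (within 0.0001), which places the zero midway between them, against 0.45% equal in both.

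Control probe sets (124) were left out. The platform annotation gave 1 symbol to 10069 probe sets, several to 198 and none to 13732. All 82 members were found in RefSeq by gene ID. The choice of the probe set with the highest mean acts on relative values here.

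Differences were tested with limma 3.58.1 in R 4.3.3 (lmFit, eBayes, two-sided, Benjamini-Hochberg over 23999 probe sets, threshold 0.05): 4 iPS lines against 2 somatic samples, against PEF alone (its spread assumed like that of the lines), and in a 3-class model. The fit was tested on simulated data. Array number limits the precision. Members, roles and lists were chosen with earlier results of these data known. Named genes were the measured members of a core list (20 of 39), in each role those with the highest and lowest iPS minus somatic difference, and for SSEA1 the 3 per direction with the smallest p among members without overlap. Every other gene given with values, RFC3, POLD2 and those of the comparison list included, was chosen after its values were seen. Alternatives were quantile normalization, median centring, leaving out the lowest 40% by mean, averaging probe sets per gene, eBayes with a trend, a fit of the 4 iPS lines alone, and omitting samples 1 at a time. Omitting both PAFSC and PS24, and choosing probe sets without PAFSC, were added after seeing the data. A planned motif search in promoters was not run, since no sequence was used here.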

Additional observations from a re-analysis of the deposited data

Results flagged for a closer look

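ORC1, the origin recognition ATPase, had 0.13 in iPSCs-w, apart from 0.00 in PS24, -0.00 in 30AC5 and 0.01 in iPF4-2. The gap was 0.895 of the whole range of the 4 lines. Chance alone sets a sample apart in this way in about 1 in 20 groups, and the gap is small beside the distance to PEF at -1.41 and PAFSC at -2.07.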

How the results depend on the processing

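The counts and medians of the iPS against somatic comparison depended on PAFSC and PEF, and the cause was not tested. Leaving out each sample gave 0 to 37 members past limma's threshold higher and 0 to 17 lower, the upper values without PEF, where 20.7% of all probe sets were called higher and 38.9% lower. Members without overlap numbered 24 to 44 higher and 5 to 28 lower, beside 13.1% to 32.4% and 11.8% to 52.8% of all probe sets. Without PEF they were 44 and 28 (29.7% and 52.8%), and without PAFSC 36 and 11 (32.4% and 19.1%). The median difference was 0.50 to 1.71 for replication, 0.32 to 1.30 for mitosis (lowest without PAFSC, highest without PEF) and -0.32 to 0.15 for the other members, whose value with all samples was -0.27. Quantile normalization gave 15 members higher without overlap and 0.04 for the other members, median centring 0.03 and averaging probe sets per gene 0.04. Leaving out the lowest 40% by mean, which removes probe sets low in PAFSC and kept 30 members, gave 1 higher and 1 lower without overlap. The medians were then -0.60, -0.18 and -0.52 for replication, mitosis and other members. Shares of all probe sets without overlap are not given for quantile normalization or this filter. The counts under these settings therefore cannot be read against a background. With PAFSC and PS24 left out, 43 were higher and 15 lower without overlap, mitosis had 0.35 and other members 0.15. Choosing probe sets without PAFSC gave 0.45 for other members.

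Named genes changed sign as follows. With PAFSC and PS24 left out, CCND2 was -1.24, CDC45 0.13, CDK2 0.75, CDK2AP1 -0.34, CDK5 0.37, CENPF -0.02, KIF3A 0.18, KIFC1 -0.15, MCM2 1.27, MCM4 0.29 and MCM5 0.97. Quantile normalization gave CDK5 0.17, KIF3A 0.10, MCM2 0.78 and MCM5 0.14, median centring CDC25B 0.21, CDK5 0.03 and MCM2 0.24, the mean of probe sets CDK2 0.03, KIF3A 0.05, MCM2 0.58 and MCM5 0.14, and probe sets chosen without PAFSC CDC45 0.37, CDK2 1.43 and KIF3A 1.14. Leaving out each sample, the range was -0.55 to 0.86 for CCNA2, -0.09 to 0.63 for CDC20, -1.71 to 1.53 for CDC25B, -0.42 to 0.61 for PLK1, -0.15 to 0.56 for RFC1, -0.93 to 1.00 for CCND2, -1.09 to 0.02 for CDC45, -2.67 to 0.75 for CDK2, -0.42 to 4.34 for CDK2AP1, -0.92 to 0.38 for CDK5, -1.28 to 0.23 for KIF3A, -0.14 to 0.87 for KIFC1, -1.12 to 0.99 for MCM2, -2.16 to 0.31 for MCM4 and -1.71 to 0.50 for MCM5.

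In the SSEA1 comparison, members without overlap numbered 18 to 37 higher and 10 to 34 lower when each sample was left out. All probe sets gave 21% to 39.3% and 20.2% to 36.8%, the upper values with 1 line left in a class. With the lowest 40% left out the counts were 5 and 5, and the share of all probe sets is not given for that setting. The median ranged from -0.20 to 0.10 for replication, from -0.10 to 0.14 for mitosis and from -0.02 to 0.11 for the other members, whose value with all samples was -0.02. The mean of probe sets gave CDC45 0.14, CDK2 0.02 and MCM4 -0.14, and probe sets chosen without PAFSC CDC45 0.47 and CDK2 0.18. Leaving out each sample, the range was -2.88 to 0.38 for CCNA2, -0.45 to 0.06 for CDC45, -0.29 to 0.12 for CDK2AP1, -0.07 to 0.21 for CDC20, -0.12 to 0.09 for CDK16, -0.20 to 0.36 for CENPB, -0.22 to 0.37 for TOP2A, -0.10 to 0.41 for MCM3, -0.50 to 0.32 for CDK2 and -0.44 to 0.04 for RFC1. Of the recomputed values of named genes, 364 in the SSEA1 comparison and 315 in the iPS against somatic comparison kept direction and side of the threshold, while 19 and 48 changed sign. The remaining values of the second comparison kept direction but not side of the threshold. All of them came from leaving out PEF, which sets the lines against the single PAFSC array. The shares of all probe sets called in that fit are given above. CDC25B turned sign there, at 1.53 against -0.09 with all samples. No paired analysis was possible because the groups share no replicate pairs: each sample is a different line or culture.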
